A study of Drosophila melanogaster with 3 samples.

Results

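The genes described here encode the machinery that processes the Notch receptor: Psn, Nct, aph-1, pen-2, kuz, O-fut1 and fng, 7 of the 13968 protein-coding genes of the fly annotation. They were taken by name, and every peak summit in each gene and in the 2 kb on either side of it was collected from the deposited peak lists. The lists came from chromatin immunoprecipitation followed by sequencing (ChIP-seq) on whole Drosophila melanogaster embryos aged 0 to 24 hours, males and females mixed. There was 1 group, with 3 biological replicates, and no condition to compare it with. All embryos carried a MiMIC transposon insertion that places an eGFP exon in an intron of mam, so that the coactivator Mastermind was made as a Mam-GFP fusion, and chromatin was precipitated with an anti-GFP antibody. The label names a possible control experiment, which was not analysed here.

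Notch is a membrane receptor that becomes a transcription regulator only after it has been cut. In the secretory pathway O-fut1 adds fucose to its extracellular repeats and also acts as a chaperone, and fng extends that fucose and so changes which ligands the receptor answers to. When a ligand binds, the metalloprotease encoded by kuz removes the extracellular part. The gamma-secretase complex then cuts within the membrane: Psn encodes Presenilin, the catalytic subunit, Nct encodes nicastrin, the large glycoprotein subunit, and aph-1 and pen-2 encode the small membrane subunits. The released intracellular domain joins Su(H), the DNA-binding protein of the pathway, and Mastermind. Whole embryos mix all cell types, so a peak does not show in which cells the fusion protein was located.

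The reproducible peaks below are the 5326 peaks that passed the authors' irreproducible discovery rate (IDR) threshold, the strongest of 24073 pooled peaks by signal. Signal is the authors' signal value for each peak, whose scaling the labels and deposited notes do not state. It ran from 110 to 5297 in the reproducible list, with a median of 195. The replicate lists held 30000, 24267 and 24306 peaks including background calls, so ranks were read within a list, rank 1 being the strongest, and a replicate peak was called strong when it was among the 5326 strongest of its list. The median ratio of a reproducible peak's pooled signal to the sum of its 3 replicate signals was 1.00, with quartiles of 0.986 and 1.02, so the pooled value is close to a sum over replicates.

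Sequences around 5 of the summits, and around 2 matches to the Su(H) site, show the DNA that the results turn on. All are from the plus strand of the dm6 assembly, 5′ to 3′. The aph-1 pair lies between Snx21 and aph-1 and is shown because it holds 2 of the 3 strongest summits. The CG7006 promoter holds the summit in the Nct window, the B4 intron the one in the kuz window, and the spacer between Taf10b and Taf10 one that just missed the threshold. A single capital marks the summit base in the aph-1 and kuz summit sequences. In the CG7006 promoter and the Taf10b spacer, the capitals mark a match to the DNA replication-related element (DRE), the site of the promoter factor DREF. In the last pair they mark the match to the Su(H) site, which reads on the minus strand near Nct and on the plus strand in kuz.
aph-1 upstream summit, chr2L:2765916-2766036: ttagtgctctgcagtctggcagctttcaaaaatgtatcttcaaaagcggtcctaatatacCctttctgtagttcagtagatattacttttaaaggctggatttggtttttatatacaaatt
aph-1 proximal summit, chr2L:2766120-2766232: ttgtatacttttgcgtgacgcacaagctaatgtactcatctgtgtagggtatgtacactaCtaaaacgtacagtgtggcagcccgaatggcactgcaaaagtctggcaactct
CG7006 promoter upstream of Nct, chr3R:24850532-24850626: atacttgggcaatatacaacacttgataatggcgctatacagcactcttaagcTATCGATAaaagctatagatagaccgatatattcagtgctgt
kuz upstream summit, in an intron of B4, chr2L:13548375-13548495: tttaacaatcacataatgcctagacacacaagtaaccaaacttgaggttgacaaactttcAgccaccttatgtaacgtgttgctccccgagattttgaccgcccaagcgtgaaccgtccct
spacer between Taf10b and Taf10, chr2L:2767846-2767889: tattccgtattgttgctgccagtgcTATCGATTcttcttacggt
Su(H) match near Nct, chr3R:24850644-24850673: cactgaaacatTTCTCACGtgtaaagttga
Su(H) match in kuz, chr2L:13631719-13631748: gaatacatgtcTGTGAGAAcggggatattg

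Reproducible summits lay in the windows of 5 of the 7 genes, Nct, aph-1, pen-2, kuz and O-fut1, while 42.8% of all protein-coding genes had one under the same rule. The 5 genes had 6 summits between them. Only the pair at aph-1 had a TSS (transcription start site) of the receptor-processing gene itself as the nearest one. The other 4 summits were nearest to the TSS of a neighbour: CG7006 for Nct, Ote for pen-2, B4 for kuz and eIF3m for O-fut1. How often a summit in a gene's window is nearest to a neighbour's TSS was not computed over all genes. No reproducible summit lay inside any of the 7 genes, against 13.4% of all protein-coding genes. Within 1 kb of an own TSS, 2 of the 7 genes had a reproducible summit (aph-1 and pen-2), against 29.7% of all genes. By a separate rule, that a reproducible summit at any distance has an own TSS as its nearest, the count was 1 of 7 (aph-1), against 24.8%. The count of 2 of 7 within 1 kb of an own TSS is the count nearest to its background share. No test was made of any of these counts.

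**Figure D1:**
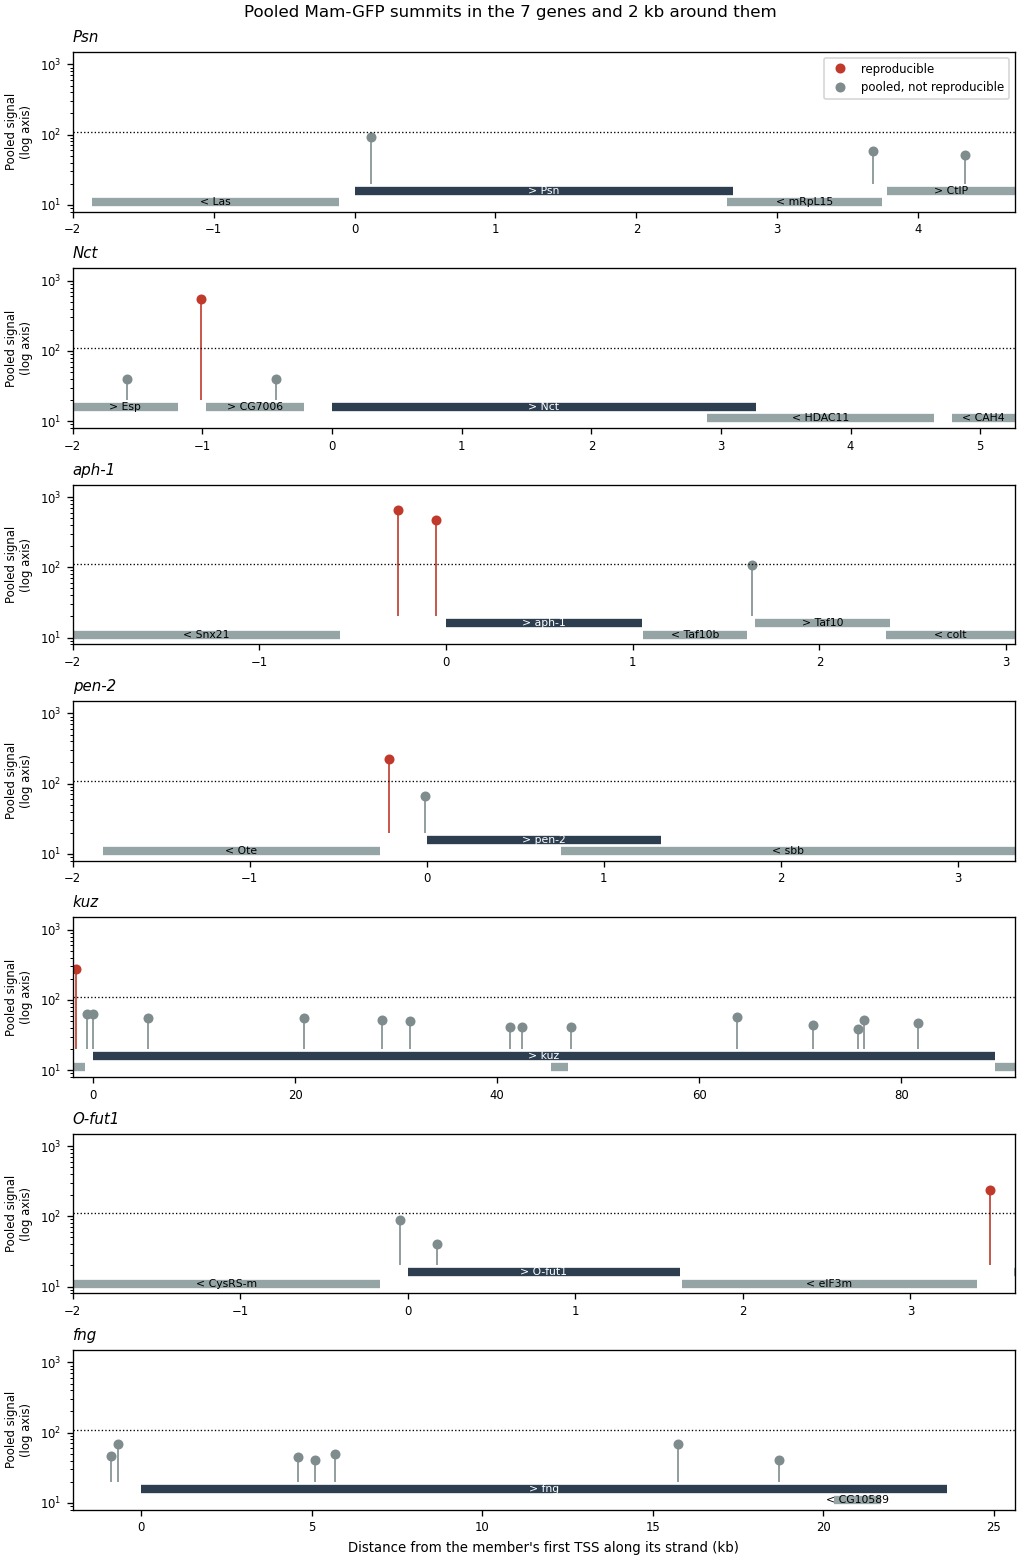
Pooled summits in the window of each gene: the horizontal axis is the distance from the gene's first TSS along its strand in kb, the vertical axis the authors' pooled signal on a log scale. Red points are reproducible, grey points are not, the dotted line is the lowest reproducible signal (110), dark bars are the named gene, and grey bars are protein-coding neighbours with > for the same strand and < for the other (narrow bars have no label; at kuz they are, from the left, B4, CG9254 and ics). All 6 red points lie outside the dark bars.

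Gene length bears on these counts, because a longer window holds more positions. Among genes under 5000 bp, 4 of 5 receptor-processing genes had a reproducible summit in the window, against 36.9% of all genes of that length. Among genes over 20000 bp, 1 of 2 (kuz, not fng) had one, against 64.3%. None of the 7 genes was between these lengths, where 58.9% of genes had one. Of genes over 20000 bp, 50.6% held a reproducible summit inside the gene, and 0 of 2 among the receptor-processing genes. Per length, the 7 windows together held 0.398 reproducible summits per 10 kb, and the genome also held 0.398. The kuz window, 93273 of the 150851 bp, held 0.107 per 10 kb and weighs most in this figure. The windows of Nct, aph-1, pen-2 and O-fut1 held 1.38 to 3.96, and those of Psn and fng 0.

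The gamma-secretase subunits spanned almost the whole range. The aph-1 gene (FBgn0031458; 2L, 2766233 to 2767281, plus strand) is 1049 bp long and starts 567 bp from Snx21, a sorting nexin gene on the other strand. Both of its reproducible summits lay in that spacer, which their sequences above sample. The upstream peak (2765890 to 2766088) had its summit 257 bp upstream of the aph-1 TSS and a pooled signal of 649, rank 337. Its signals in replicates 1, 2 and 3 were 166, 237 and 245, with ranks of 550, 262 and 295. The peak was therefore far inside the reproducible list in the pooled data, and strong in every replicate.

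The second aph-1 peak (2766031 to 2766256) had its summit 53 bp upstream of the TSS and a pooled signal of 470, rank 647. Its replicate signals were 149, 86.1 and 166, with ranks of 682, 1791 and 644, so replicate 2 placed it lower than the other two did. The peaks overlapped, but their summits were 204 bp apart in the pooled list and 204, 205 and 205 bp apart in replicates 1, 2 and 3. Each replicate list thus held both summits. The aph-1 upstream summit also lay in the 2 kb windows of 3 other protein-coding genes, Snx21, Taf10b and Taf10, which encode the sorting nexin and, for the Taf10 pair, subunits of the general transcription factor TFIID.

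One more summit in the aph-1 window just missed the threshold. It lay in the 44 bp spacer between Taf10b and Taf10 (summit 2767873), 17 bp from a Taf10 TSS and 592 bp beyond the end of aph-1. Its pooled signal was 107, rank 5524, 198 ranks below the last reproducible peak. Its signals in replicates 1, 2 and 3 were 53.6, 37.2 and 23.9, with ranks of 3650, 5084 and 9606. It was strong in replicates 1 and 2 and not in replicate 3.

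For Nct (FBgn0039234; 3R, 24851601 to 24854869, plus strand), the reproducible peak belonged by position to the gene next to it. The peak (24850476 to 24850712) had its summit 35 bp upstream of the TSS of CG7006, a 759 bp gene that lies between this summit and Nct on the same strand. The summit was 1009 bp upstream of the Nct TSS, just over the 1 kb limit. The replicate 2 summit was 993 bp from that TSS, just within it. The peak's pooled signal was 546, rank 479, second to aph-1 among the 6. The signals in replicates 1, 2 and 3 were 175, 178 and 185, with ranks of 504, 494 and 514. These ranks differed by a factor of 1.04 between the highest and the lowest number, against a median factor of 1.63 over the reproducible peaks with a match in all replicates.

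Nearer to Nct itself the lists held little. The pooled summit closest to its TSS (24851169, 432 bp upstream and inside CG7006) had a signal of 39.6, rank 19750. It was matched in replicate 1 alone, with a signal of 19.9 and rank 17037.

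The pen-2 gene (FBgn0053198; 2R, 18277439 to 18278762, plus strand) starts 261 bp from Ote, which encodes a LEM-domain protein of the nuclear lamina, and is read away from it. The reproducible peak (18277027 to 18277422) covered this spacer except for the bases next to pen-2, with its summit 48 bp from an Ote TSS and 214 bp from the pen-2 TSS. Its pooled signal was 226, rank 2187. In replicates 1, 2 and 3 the signals were 72.9, 73.6 and 78.4, with ranks of 2339, 2202 and 2235. The replicate ranks stayed close together, but the replicate summits lay 31 to 69 bp nearer to pen-2 than the pooled one. In the pooled list a weaker overlapping peak had its summit 12 bp upstream of the pen-2 TSS, 202 bp from the first, with a signal of 66.2 and rank 9486. No replicate list held a separate peak there. The weaker peak overlapped only the replicate peaks already given, with summits 133, 170 and 171 bp away in replicates 1, 2 and 3.

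Psn (FBgn0284421; 3L, 20432468 to 20435156, plus strand), the catalytic subunit gene, had no reproducible summit in its window. It starts 106 bp from Las, which encodes lipoic acid synthase and lies on the other strand. The nearest reproducible summit was 7121 bp away, at CG5910. The pooled list did hold a peak at Psn with its summit (20432584) 11 bp upstream of 1 of its 3 TSSs. That peak had a signal of 94.0 and rank 6345, 1019 ranks below the last reproducible peak, and a −log10 q-value of 2.47, where the highest value in the list was 4.00. In replicates 2 and 3 the matching peak had signals of 46.6 and 39.1, with ranks of 3948 and 5286, both strong. In replicate 1 the overlapping peak had a signal of 15.6, rank 26361, and its summit was 339 bp away. The replicates therefore differed at Psn: it would count as carrying a strong summit in 2 of 3 and not in replicate 1.

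In the pooled list and in replicate 3 the other summits in the Psn window were weaker than the Psn peak, and replicate 2 held no other. In replicate 1 the strongest was 36 bp upstream of a TSS of CG5262, with a signal of 29.8 and rank 8555, and one at CtIP had 23.7 and rank 12540, both ahead of the Psn peak there. The pooled list had one 64 bp downstream of a TSS of mRpL15, a mitochondrial ribosomal protein gene, with a signal of 58.0 and rank 11068. Another lay in the coding sequence of CtIP, a DNA end-resection gene, with a signal of 51.3 and rank 13164.

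**Figure D2:**
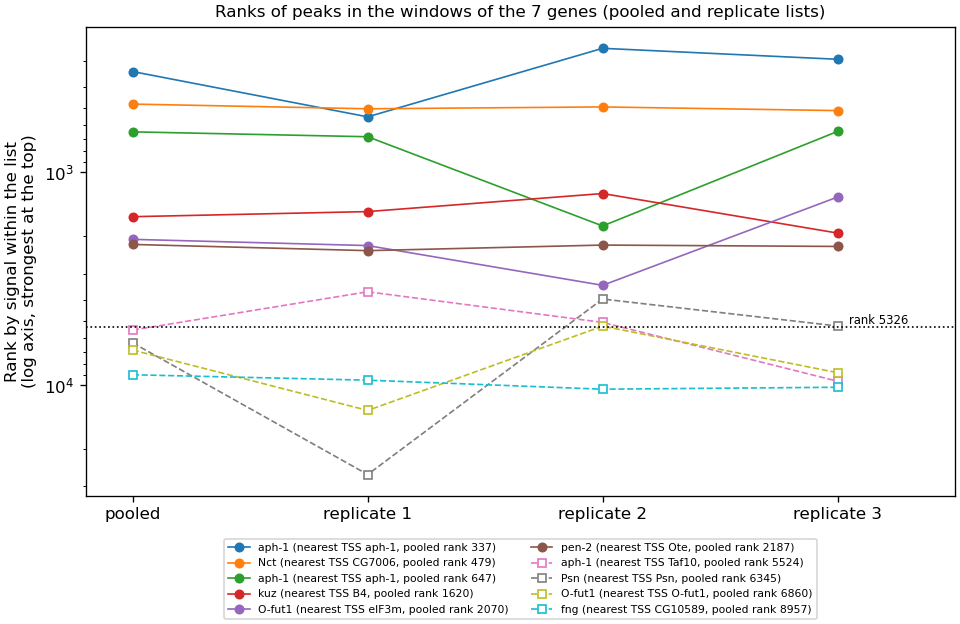
Rank of each peak by signal (vertical log axis, strongest at the top) in the pooled list and in replicates 1 to 3 (horizontal axis) for the 6 reproducible peaks (filled, solid lines) and 4 of the peaks below the threshold (open, dashed lines). The dotted line is rank 5326. All filled points lie above it, and the Psn peak crosses it, from rank 3948 in replicate 2 to rank 26361 in replicate 1.

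The ligand-dependent protease gene kuz (FBgn0259984; 2L, 13550139 to 13639411, plus strand) is 89273 bp long, the longest of the 7. Its reproducible peak (13548367 to 13548499) was 1704 bp upstream of the kuz TSS, in an intron of B4, a gene on the other strand that starts 810 bp from kuz. Its summit was 664 bp upstream of the nearest B4 TSS and it was the one reproducible summit of the 6 that was not within 500 bp of any TSS. The pooled signal was 279, rank 1620. In replicates 1, 2 and 3 the signals were 95.1, 108 and 87.5, with ranks of 1533, 1261 and 1934. The peak was strong in all 3 replicates, with the replicate 3 summit 116 bp from the pooled one.

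Inside kuz there were 13 pooled summits, 11 of them in introns, and none was reproducible. Their signals ran from 38.7 to 62.4, with ranks from 20475 to 10137. The highest was at the kuz TSS (13550162, 23 bp downstream), with signals of 26.9 and 26.7 in replicates 1 and 2, ranks of 10137 and 7247, and no overlapping peak in replicate 3. Between B4 and kuz, 570 bp upstream of the kuz TSS, lay a summit with a pooled signal of 63.7, rank 9912. Its signals were 20.9, 24.4 and 30.5 in replicates 1, 2 and 3, with ranks of 15623, 7948 and 7035. The kuz window held 1.61 pooled summits per 10 kb, against 1.80 over the genome.

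O-fut1 and fng, the glycosyltransferase genes, had no reproducible summit at their own promoters. O-fut1 (FBgn0033901; 2R, 14161430 to 14163054, plus strand) had its reproducible peak (14164706 to 14165101) beyond its 3′ end. The summit was 79 bp upstream of the TSS of eIF3m, a translation initiation factor subunit gene, in the spacer between eIF3m and CG8323, and 3474 bp from the O-fut1 TSS. The pooled signal was 235, rank 2070. In replicates 1, 2 and 3 the signals were 75.5, 52.6 and 112, with ranks of 2214, 3404 and 1310. The peak was strong in each replicate, and its ranks differed by a factor of 2.60, above the median factor of 1.63. The factor was also above that median for the upstream (2.10) and proximal (2.78) aph-1 peaks. It was below the median for kuz (1.53) and pen-2 (1.06), as for Nct.

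At the O-fut1 TSS itself the pooled summit (14161383, 47 bp upstream) had a signal of 87.3, rank 6860. This summit lies in the 167 bp spacer to CysRS-m, a mitochondrial aminoacyl-tRNA synthetase gene on the other strand. The replicate signals were 23.1, 35.8 and 25.5, with ranks of 13181, 5294 and 8760. Replicate 2 alone placed it among the strong peaks, at the limit of 5326.

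The fng gene (FBgn0011591; 3L, 20925891 to 20949512, minus strand) had no reproducible summit in its 23622 bp or within 2 kb. The nearest was 3822 bp beyond its 3′ end, with a signal of 129 and rank 4475. The pooled list held 7 summits in the window, 5 inside the gene and 2 upstream of it. The strongest, in an intron (20933770), had a signal of 69.4, rank 8957. Its replicate signals were 27.9, 19.8 and 22.9, with ranks of 9499, 10472 and 10255, far from the strong peaks in each list. The summit 665 bp upstream of the fng TSS had a pooled signal of 68.9, rank 9041. The nearest overlapping peaks in replicates 1, 2 and 3 had signals of 26.5, 32.0 and 22.6, with summits 225, 1 and 148 bp away. The replicate 1 and 3 summits were nearer to the other pooled summit upstream of fng (20950399, signal 46.3), at 3 and 74 bp. The first pooled summit lay closer to the TSS of the noncoding gene lncRNA:CR45243, at 606 bp. The fng window held 2.53 pooled summits per 10 kb, more than the 1.80 over the genome, although no summit passed the threshold.

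**Figure D3:**
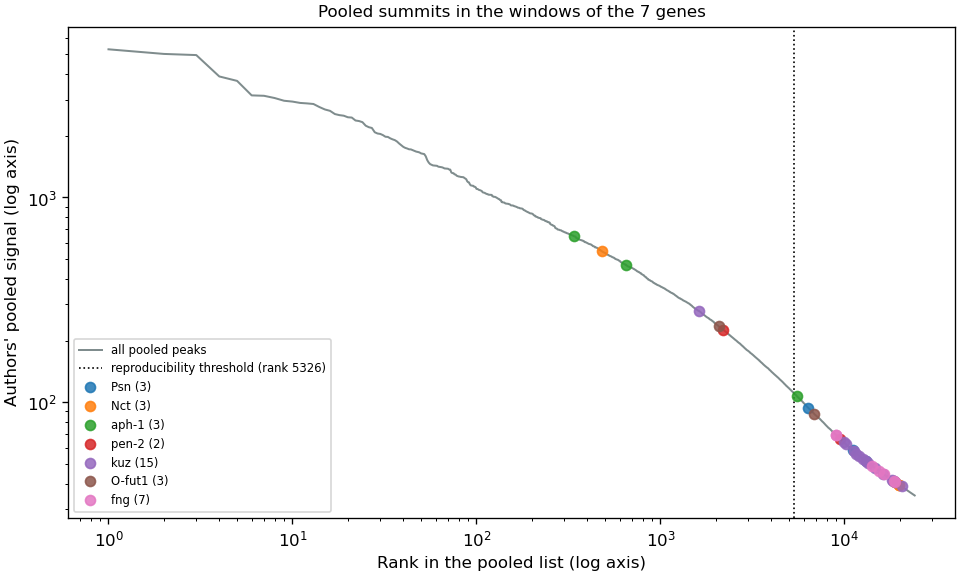
Pooled signal against pooled rank, both on log axes, for all 24073 pooled peaks (line) and for the 36 summits in the windows of the 7 genes (points, with the number per gene in the legend). The dotted line marks rank 5326. The 6 points left of it belong to aph-1, Nct, kuz, O-fut1 and pen-2, and 30 points lie right of it.

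All 6 reproducible peaks overlapped a strong peak in each of the 3 replicates by at least 1 bp, against 73.5% of the 5326 reproducible peaks. The count was 5 of 6 when at least 50% of both peaks had to overlap, and 5 of 6 with the stronger 50% of the strong replicate peaks. The share of all reproducible peaks was not computed for either of these stricter rules, so whether 5 of 6 is usual is unknown. The strongest peaks of the 5 genes with one had a median signal of 279, against 195 over all reproducible peaks. These are unlike measures, since taking the strongest peak of a window can only raise the value. A median of strongest peaks per gene was not computed over all genes. All 6 peaks were above that median of 195, and the part of signal in their support was not tested. The order by pooled signal was aph-1, Nct, kuz, O-fut1, pen-2, Psn and fng. O-fut1 and pen-2 were neighbours in that order at 235 and 226, and they changed places between replicates: pen-2 had the lower rank number in replicate 2, and O-fut1 in replicates 1 and 3. In replicate 3, O-fut1 also ranked ahead of kuz, at 1310 and 1934. The upstream aph-1 peak and the Nct peak changed places in replicate 1, where Nct ranked 504 and aph-1 550. In replicate 1 the peak overlapping the pooled Psn peak, with its summit 339 bp away, ranked behind the intronic fng peak, at 26361 and 9499. Followed peak by peak, these neighbours therefore had no stable order over the replicates, whereas the Nct peak ranked ahead of the kuz peak in all 3. By the strongest summit anywhere in the window, Psn ranked ahead of fng in each replicate, at 8555 and 9499 in replicate 1, where the Psn window summit was at CG5262.

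Including weak calls, all 7 genes had a pooled summit within 1 kb of an own TSS, against 58.9% of protein-coding genes. The pooled list includes background calls, and the signals of the best such summits ran from 39.6 at Nct to 649 at aph-1. In all, the 7 windows held 36 pooled summits, or 2.39 per 10 kb against 1.80 over the genome. In replicates 1, 2 and 3 the windows held 2.85, 2.06 and 2.06 summits per 10 kb, against 2.24, 1.81 and 1.82 over the genome.

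The arrangement of the genes was one feature that the choice by name did not use. Of the 7 genes, 5 (Psn, aph-1, pen-2, kuz and O-fut1) had their 5′ end within 1 kb of the 5′ end of an upstream protein-coding gene on the other strand, against 33.3% of all protein-coding genes. The spacers were 106 bp for Psn, 567 bp for aph-1, 261 bp for pen-2, 810 bp for kuz and 167 bp for O-fut1. Among genes in such pairs, 2 of 5 receptor-processing genes had a reproducible summit within 1 kb of an own TSS, against 50.9% of all. Among genes without one, 0 of 2 (Nct and fng) had a summit, against 19.1% of all. In a paired arrangement a summit in the spacer cannot be assigned to either gene by position alone. Each reproducible summit here lay in the windows of 2 to 4 protein-coding genes. The share of all reproducible summits that lie in several windows was not computed, so whether this is usual is unknown.

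**Figure D4:**
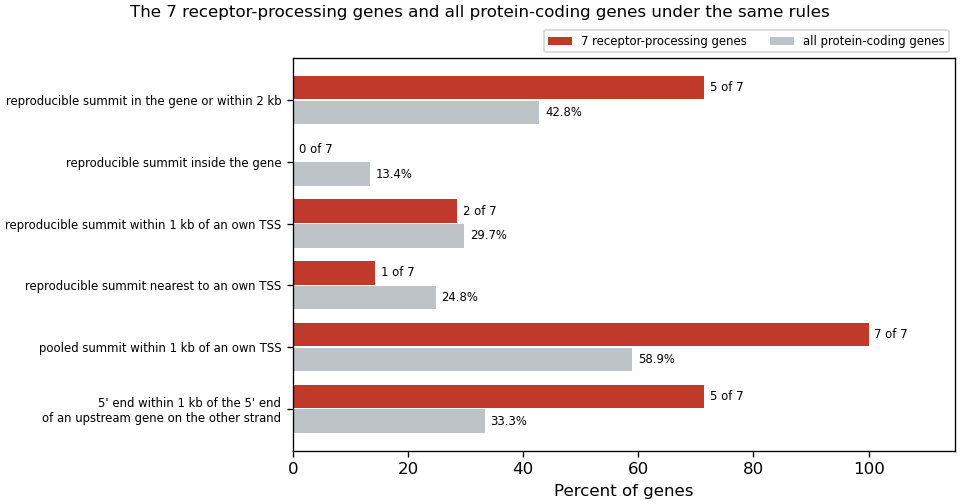
Percent of genes that meet each rule (horizontal axis) for the 7 receptor-processing genes (red, with the count) and for all 13968 protein-coding genes (grey, with the percent). The red bar is longer for the window rule (5 of 7, 42.8%), for pooled summits near a TSS (7 of 7, 58.9%) and for paired 5′ ends (5 of 7, 33.3%), about as long for a reproducible summit within 1 kb of an own TSS (2 of 7, 29.7%), and shorter for the other rules (0 of 7, 13.4%, and 1 of 7, 24.8%).

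Motifs were looked for within 100 bp of each summit, on either strand. The Su(H) site, read as CGTGAGAA, CGTGGGAA, TGTGAGAA or TGTGGGAA, was found at 1 of 6 reproducible summits of the 7 genes, against 2.33% of all reproducible summits. The match was the Nct one printed above (24850655 to 24850662), 63 bp from the summit at the CG7006 promoter and in the CG7006 5′ UTR. Among the 36 pooled summits 2 had a match, against 2.28% of all pooled summits. The second was the kuz match printed above, near an intronic summit (13631808) of rank 14738. With the looser forms ATGAGAA or ATGGGAA and GTGAGAA or GTGGGAA, 2 of 6 summits (Nct and the proximal one of aph-1) had a match, against 9.93%. The Nct match is the same site in both searches.

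The DRE, read as AATCGATA, AATCGATT, TATCGATA or TATCGATT, was present at 1 of 6 reproducible summits, against 10.6%. It was the TATCGATA of the CG7006 promoter, whose last base is the summit base. Among the 36 pooled summits 3 had a DRE, against 5.56%: the same one, the summit between Taf10b and Taf10, where it covers the summit base, and the weak summit at the pen-2 TSS. The core of the insulator protein BEAF-32, CGATA, which overlaps most DRE forms, was at 2 of 6 (Nct and pen-2), against 34.5%. The GAGAG element of GAGA factor was at 0 of 6, against 21.9%, the Zelda heptamer CAGGTAG at 0 of 6, against 0.958%, and Ohler motif 1, a core promoter element, at 0 of 6, against 1.80%. The E-box CANNTG was at 3 of 6, against 62.0%, and the initiator TCAGT at 3 of 6, against 34.6%. The G+C content of the windows had a median of 37.3% for the 6 summits (31.3% to 45.3%), against 36.3% for all reproducible summits. A match is a description of the sequence, and a missing match says only that these letters are not in the window.

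Other genes that act on the Notch receptor or its ligands in the secretory pathway and at the membrane were read by the same rules. Of 21 such genes, 13 had a reproducible summit in the gene or within 2 kb (61.9%), and 10 within 1 kb of an own TSS (47.6%), beside the 42.8% and 29.7% of all protein-coding genes given above. These genes ran in length from 1284 bp (Gmer) to 125628 bp (Fur1). Their counts were not split by gene length, which bears on the window count. The highest signals near a TSS were at Fur1, a furin protease gene (1404, rank 65), and Gmd, an enzyme gene of GDP-fucose synthesis (920, rank 153). Next came rumi, an O-glucosyltransferase gene that acts on Notch (554, rank 466), and Tsp3A, a tetraspanin gene (394, rank 875). Unlike the other genes just named, Tsp3A had no reproducible summit with its own TSS as the nearest. N, the receptor gene, had 4 reproducible summits in its window, the strongest with a signal of 501, and 177 near a TSS (rank 3012). Among the other ADAM metalloprotease genes, Kul had a reproducible summit of 2378 in its window and 159 near a TSS, Meltrin 190 near a TSS, and Tace 160 in its window and none near a TSS. The window summits of 501 at N, 2378 at Kul and 160 at Tace lay more than 1 kb from an own TSS. The genes nearest to them were not listed, so they may belong by position to neighbours. No reproducible summit lay in the windows of Fur2, shams, Tsp86D, Tsp26A, amx, pcx or the ligand genes Delta and Ser.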

How the data were processed

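Peak lists of 1 group with 3 biological replicates were read as the authors deposited them. Each peak carries the authors' signal value and a deposited −log10 q-value. Per the labels, chromatin was sonicated to 200 to 800 bp. Aligner, peak caller and signal scaling: not given in the sources used here. Read numbers are not in these lists, so depth is unknown. Lists in dm3 were not used. From the dm6 lists the summits, ranks and distances were computed with Python 3.11.15, numpy 2.4.6, pandas 2.3.3 and matplotlib 3.10.9, with the Ensembl 115 annotation (BDGP6.54) and the RefSeq Release 6 sequence; positions are 1-based. The nearest summit among overlapping peaks (at least 1 bp) gave the replicate match. Summits within 500 bp of a TSS were promoter summits. The functions were tested on simulated data. No hypothesis test was run, since there is 1 group. The genes and lists were chosen with earlier results of these data known, and the counts of paired 5′ ends, of summits inside the gene and of nearest own TSSs were added after values were seen. Named genes were the 7 genes, the genes nearest to or holding each summit, the 4 other receptor-processing genes with the highest signal near a TSS, and the 3 peaks closest in replicate signal to each gene's strongest peak; further names among the other genes were chosen after their values were seen. Alternatives were the flank, the TSS distance, the peak set, the overlap rule, the motif window and each replicate left out.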

Additional observations from a re-analysis of the deposited data

How the results depend on the processing

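Of 36 alternatives, 25 left the value within its limit and 11 moved it. The number of genes with a reproducible summit in the window was 5 of 7 at 2 kb, against 42.8% of all protein-coding genes. It was 0 with the gene body alone (13.4% of all genes), 2 with a flank of 1000 bp (36.5%) and 6 with 5000 bp (56.4%), which adds fng. With the gene body alone and at 1000 bp the share of the 7 genes was thus below that of all genes. The count was 1 when a summit at any distance had to have an own TSS as its nearest (24.8% of all genes). That alternative was chosen after seeing the data. The number of summits, 6 at 2 kb, was 0 with the gene body alone, 3 with 1000 bp and 10 with 5000 bp. Genes with a summit near an own TSS were 2 at 1 kb (29.7% of all genes) and 4 at 2000 bp (35.2%). The summits with a Su(H) site were 1 at 100 bp (2.33% of all reproducible summits) and 0 at 50 bp (1.01%). The median strongest signal, 279 in the pooled list, was 95.1, 108 and 112 in replicates 1, 2 and 3. Because the pooled value is close to a sum over replicates, a lower value in each replicate was fixed in advance. These 3 values count among the 11 that moved, and they say nothing about stability. Leaving out a replicate meant keeping the reproducible peaks matched by strong peaks of the other replicates, without calling peaks again. All 6 peaks were matched in all 3 replicates. The counts of 5 genes, 6 summits and 2 genes near a TSS therefore could not change. These settings are among the 25 above and do not test what a list without that replicate would hold. The strong peaks of replicates 1, 2 and 3 alone gave 5, 6 and 6 genes, with Psn added in replicates 2 and 3. The shares of all genes were 41.3%, 42.6% and 43.1%. Support by all 3 replicates, 6 peaks, was 5 with a reciprocal overlap of 50% and 5 with 50% as many replicate peaks, with no share of all reproducible peaks computed for either. No paired analysis was possible because there is 1 group and the result comes from no test. Depth is unknown, so whether a summit is missing from a list for lack of reads was not tested.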

Other observations

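For the strongest reproducible peak of each gene, the peaks most alike in signal over the 3 replicates were found by the Euclidean distance of log2 signals, among the reproducible peaks with a match in all replicates. The peak at aph-1 was closest to those nearest to eIF3c (0.106), CG10467 (0.108) and Faf2 (0.127). The peak assigned to Nct was closest to those nearest to Nup160 (0.0826), Helz (0.0837) and Tsp42Eg (0.0902). The pen-2 peak was closest to those nearest to PpV (0.0508), chn (0.0532) and Nup43 (0.0663). The summits of these 3 peaks lay 2933, 8166 and 79 bp from the named TSSs, so the first 2 were not at promoters. The kuz peak was closest to those nearest to CG5087 (0.0371), Golgin245 (0.0746) and CG5846 (0.0753). The O-fut1 peak had no peak as near, with lncRNA:CR44156 (0.212), TER94 (0.213) and Tlk (0.257) the closest. Those summits lay 2313, 102 and 847 bp from the named TSSs. The distances rest on 3 libraries and describe the likeness of peak signal only.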
